A study of Mus musculus with 10 samples.

Results

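The genes described are 8 genes of the cholesterol pathway in wound-edge skin of diabetic mice, and they are 7 enzymes of cholesterol synthesis (Hmgcs1, Idi1, Fdps, Fdft1, Sqle, Lss and Cyp51) and Insig1, which restrains the pathway when sterols are plentiful. They were chosen by gene symbol, each through its brightest feature that names 1 gene, and all 8 were found among 30791 named genes and among the 17659 genes bright enough to be tested. Each of the 8 had 1 feature. The set holds no uptake gene, so uptake is described from a separate list. Male db/db mice, 11 weeks old, were housed singly for 1 week before wounding. The strain is given as BKS(D)-Leprdb/JOrlRj and its background as C57BL/6, which was not checked against the strain name. The db allele disrupts the leptin receptor and causes obesity with diabetes, and every mouse of both groups carries it. Each mouse received 2 full-thickness back wounds with a 4 mm punch, and the skin around each wound was then injected at 4 points with a delivery reagent carrying 0.5 nmol of either a miR-132 mimic or a control mimic. Both groups received buprenorphine for pain. The 5 mice of the miR-132 group and the 5 mice of the control group gave 1 array each, from wound-edge biopsies taken 6 days after injury, and the labels leave unstated if the pair of wounds on 1 mouse was pooled. There is no unwounded and no non-diabetic group.

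Cells make cholesterol from acetyl units through mevalonate, isoprenoids, squalene and lanosterol. When sterols in the endoplasmic reticulum run low, the escort protein SCAP carries the transcription factor SREBP-2 to the Golgi, where it is cut free and switches on most enzymes of the pathway together, and INSIG proteins hold SCAP back when sterols are high. In epidermis the pathway supplies cholesterol for the lipid layers of the stratum corneum, and sebaceous glands and fat are further sites of lipid synthesis in skin.

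The agent supplied was a mimic of miR-132, a small RNA that lowers messenger RNAs it pairs with mainly through its seed, bases 2 to 8. The labels do not say which arm of the hairpin the mimic copies. The 5p arm, not shown, has a different seed. The 3p arm, credited to RefSeq (GRCm38.p6, chr11:75173723-75173744, forward strand), is shown as an example with its seed in capitals and may not be the arm supplied.
miR-132-3p: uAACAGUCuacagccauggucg

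Promoters matched 5 of the 8 genes in the RefSeq table (GRCm38.p6, 250 bases before to 50 after the transcription start, written 5′ to 3′ on the gene's strand). Of these, 4 are shown. Hmgcs1 and Insig1 hold a match to the element that SREBP binds. Lss and Cyp51 are examples that, among the motifs in capitals, match CCAAT without it. Idi1, which is not shown, also matches CCAAT without it. Capitals mark matches to the core of the sterol regulatory element, searched as CACCCCAC or in the looser form CACNCCAC, and to the NF-Y box CCAAT, on both strands.
Hmgcs1 (chr13:119690101-119690400, forward strand): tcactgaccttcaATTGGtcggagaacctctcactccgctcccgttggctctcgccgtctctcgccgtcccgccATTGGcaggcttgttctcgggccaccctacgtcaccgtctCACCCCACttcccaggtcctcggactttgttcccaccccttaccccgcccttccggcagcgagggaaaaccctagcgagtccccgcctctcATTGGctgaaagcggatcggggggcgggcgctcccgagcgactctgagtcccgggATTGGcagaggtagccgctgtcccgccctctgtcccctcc
Insig1 (chr5:28071162-28071461, forward strand): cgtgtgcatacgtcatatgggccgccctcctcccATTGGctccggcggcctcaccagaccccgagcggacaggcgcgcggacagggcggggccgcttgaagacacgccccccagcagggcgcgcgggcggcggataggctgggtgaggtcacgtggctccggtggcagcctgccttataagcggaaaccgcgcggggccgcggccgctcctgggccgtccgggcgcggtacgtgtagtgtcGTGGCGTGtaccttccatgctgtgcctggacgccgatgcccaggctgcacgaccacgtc
Lss (chr10:76531355-76531654, forward strand): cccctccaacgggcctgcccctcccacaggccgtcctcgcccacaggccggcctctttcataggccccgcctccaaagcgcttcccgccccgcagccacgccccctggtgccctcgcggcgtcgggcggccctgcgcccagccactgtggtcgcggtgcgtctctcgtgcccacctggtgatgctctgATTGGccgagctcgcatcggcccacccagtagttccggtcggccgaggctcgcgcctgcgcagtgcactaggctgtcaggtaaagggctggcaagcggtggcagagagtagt
Cyp51 (chr5:4104648-4104947, reverse strand): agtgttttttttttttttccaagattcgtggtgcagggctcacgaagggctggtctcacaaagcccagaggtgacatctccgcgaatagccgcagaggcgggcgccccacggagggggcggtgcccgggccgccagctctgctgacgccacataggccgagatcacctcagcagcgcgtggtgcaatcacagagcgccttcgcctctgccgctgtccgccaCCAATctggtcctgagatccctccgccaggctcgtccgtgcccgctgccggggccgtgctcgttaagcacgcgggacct
The strict element was found in the window of Hmgcs1 alone, at bases 115 to 122 of the stretch shown, and in 2.87% of all 32851 promoters of the table. Every CACCCCAC match is also a CACNCCAC match, and the looser form was found in Hmgcs1 and Insig1 and in 6.24% of all promoters. CCAAT was found in all 5 matched genes (Hmgcs1, Insig1, Lss, Cyp51 and Idi1) and in 37.41% of all promoters. GGGCGG, the GC box, was also found in all 5, against 35.66% of all promoters, and CACGTG, the E-box, in Insig1, against 7.15%. A match describes letters in this window and does not show binding.

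The 8 genes averaged lower in wounds given miR-132 than in wounds given control mimic, by a median of -0.47 on the log2 scale, but none passed the test and the groups overlapped for every one of them. The averages were lowest for Sqle (-0.76 ± 0.42, SE), Fdps (-0.70 ± 0.34), Cyp51 (-0.51 ± 0.29), Lss (-0.51 ± 0.33) and Fdft1 (-0.43 ± 0.23), and closer to 0 for Hmgcs1, Idi1 and Insig1 (n = 5 per group for each). The direction of the last 3 depended on 1 array or on the scaling. Of the 17659 genes that entered limma, 0% had an adjusted p under 0.05 (the lowest was 0.596), 8.09% had an unadjusted p under 0.05 (5.62% lower and 2.47% higher with miR-132) and the groups did not overlap for 0.929%. None of the 8 genes was in any of these classes. Over all genes tested the median difference was -0.016, and 53.6% averaged lower.

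The arrays differed in ways that bear on these values. The span of an array between its 10th and 90th percentile was 4.81 to 5.03 in controls but 4.41 and 4.63 on miR-132 replicates 2 and 5, and the 3 other miR-132 arrays had 4.88 to 4.92. On an array with a narrow span, bright and dim features lie closer together. Hybridisation spike-ins stood at 10.43 to 10.61 in controls and 10.57 to 10.98 with miR-132. The labels and files give no batch. Of the genes at an unadjusted p under 0.05, 992 were lower and 436 higher with miR-132. After a further quantile normalization the split was 578 and 612, after centring arrays on their medians 1585 and 131, and 401 and 615 when miR-132 replicates 2 and 5 were dropped. Without the filter on dim genes it was 991 and 1648.

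Hmgcs1 encodes the synthase that makes HMG-CoA, at the entry to the pathway. Its log2 signal was 13.86, 13.11, 13.13, 14.13 and 13.80 in control replicates 1 to 5 and 14.52, 13.35, 13.62, 13.39 and 12.28 in miR-132 replicates 1 to 5. The miR-132 group held both the highest and the lowest of the 10 arrays, replicates 1 and 5. Control wounds averaged 13.61 ± 0.46 and miR-132 wounds 13.43 ± 0.80 (SD, n = 5 each). The difference of -0.17 had a 95% interval of -1.02 to 0.67 (limma's adjusted p of 0.926). It turned to 0.11 without miR-132 replicate 5.

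Idi1 and Fdps act on the isoprenoid building blocks. Idi1 encodes the isomerase that interconverts the isoprene units, and its signal was 8.99, 8.25, 8.84, 9.17 and 9.03 in controls and 9.38, 8.06, 9.55, 8.66 and 8.0 with miR-132. Replicates 1 and 3 of the miR-132 group lay above every control and replicates 2 and 5 below every control. The difference was -0.13 (95% interval -0.88 to 0.62, limma's adjusted p of 0.944). Fdps encodes farnesyl diphosphate synthase, whose product is used for sterols and for protein prenylation, and its signal was 8.49, 7.69, 7.83, 8.48 and 8.39 in controls and 7.55, 7.24, 8.50, 7.58 and 6.51 with miR-132. Here 4 of the 5 miR-132 arrays lay below every control, while replicate 3 lay above every control. The averages of 8.18 ± 0.38 and 7.48 ± 0.72 (SD, n = 5 each) correspond to 1.62-fold lower with miR-132. The 95% interval of the difference was -1.45 to 0.05, with an adjusted p of 0.634 from limma, and an exact permutation test (two-sided) gave an unadjusted p of 0.0794. In this design the smallest p of that test is 0.0079.

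Fdft1, Sqle and Lss carry the chain from farnesyl diphosphate to lanosterol, the first sterol. Fdft1 encodes squalene synthase, the first step committed to sterols, with a signal of 7.28, 6.66, 7.04, 7.42 and 7.23 in controls and 6.85, 6.48, 7.43, 6.48 and 6.25 with miR-132. Sqle encodes squalene epoxidase, a rate-limiting step, with 10.93, 10.22, 10.40, 11.44 and 10.73 in controls and 10.12, 9.59, 11.40, 9.74 and 9.05 with miR-132. All miR-132 arrays other than replicate 3 lay below every control for Sqle, and replicates 2, 4 and 5 did so for Fdft1, where replicate 3 was the highest of all 10. The Sqle means of 10.74 ± 0.48 and 9.98 ± 0.88 (SD, n = 5 each) correspond to 1.70-fold lower with miR-132 (95% interval of the log2 difference -1.69 to 0.17, limma's adjusted p of 0.656, exact permutation p of 0.119). For Fdft1 the interval was -0.94 to 0.08 (limma's adjusted p of 0.656). Lss encodes lanosterol synthase, which closes the sterol rings, with 7.13, 6.33, 6.70, 7.61 and 6.93 in controls and 6.44, 6.46, 7.42, 6.21 and 5.61 with miR-132. Only replicates 4 and 5 of the miR-132 group lay below every control for Lss, and its interval was -1.25 to 0.23 (limma's adjusted p of 0.702).

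Cyp51 encodes the cytochrome P450 that removes a methyl group from lanosterol, the first of the late steps. Its signal was 8.41, 7.63, 8.09, 8.65 and 8.29 in controls and 8.15, 7.13, 8.36, 7.77 and 7.09 with miR-132. Replicates 2 and 5 of the miR-132 group lay below every control and the other 3 within the control range. The difference of -0.51 had an interval of -1.16 to 0.13 (limma's adjusted p of 0.667).

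Insig1, the sterol-dependent brake that is itself a target of SREBP, had the smallest difference and the narrowest spread of the 8. Its signal was 8.09, 7.63, 7.81, 7.87 and 7.90 in controls and 8.28, 7.66, 7.76, 7.90 and 7.42 with miR-132. Its highest and lowest arrays were miR-132 replicates 1 and 5. The difference was -0.06 with an interval of -0.41 to 0.30 (limma's adjusted p of 0.948), so a change of 2-fold either way lay outside the interval. It turned to 0.05 after quantile normalization and to 0.04 without miR-132 replicate 5.

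**Figure D1:**
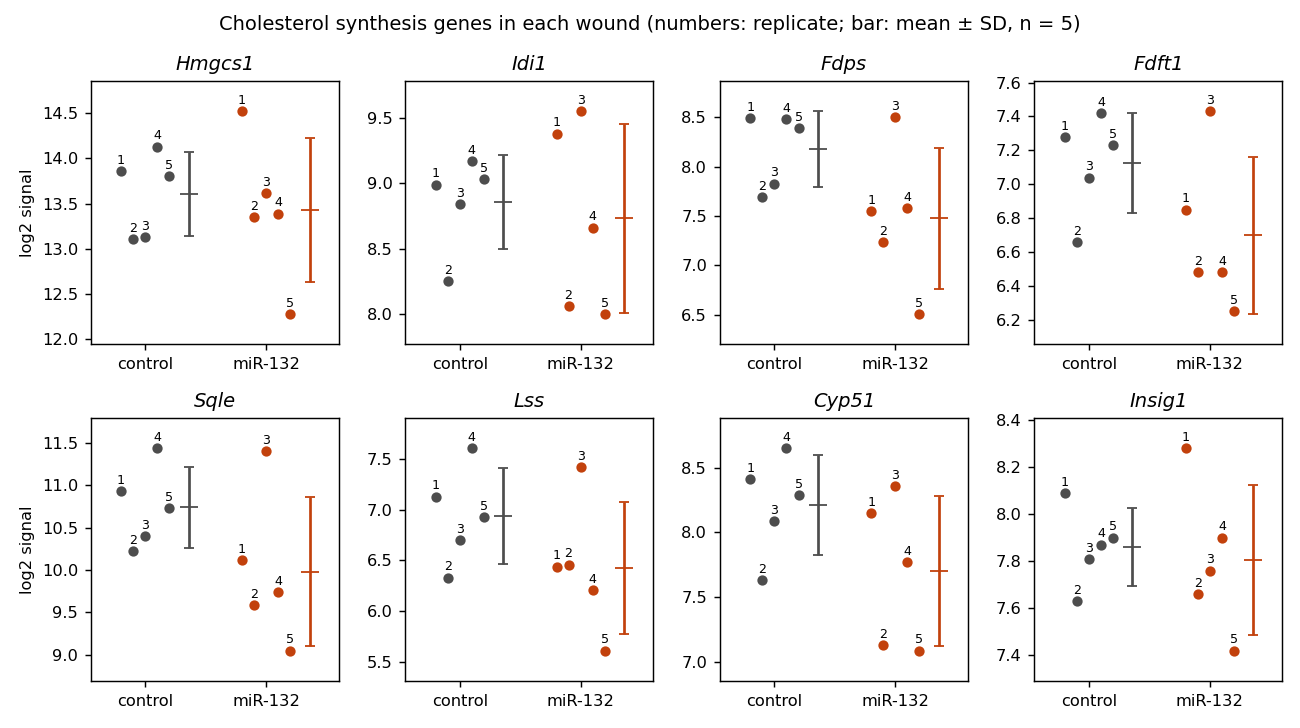
Log2 signal of the 8 genes on each array, by group, with replicate numbers beside the points and the mean ± SD (n = 5) as a bar. Replicate 5 is the lowest miR-132 array in every panel, and replicate 3 is the highest in 6 of the 8.

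The genes moved together from wound to wound within each group. Control replicate 2 was the lowest control and miR-132 replicate 5 the lowest of all 10 arrays for all 8 genes. Control replicate 4 was the highest control for 6 of them. Control replicate 2 also had the narrowest span of the controls (4.81), while the widest was that of replicate 1 (5.03), not replicate 4 (4.96). Averaged over the 8 genes, each centred on its own mean, miR-132 replicate 3 stood at 0.52 and control replicate 4 at 0.61, while miR-132 replicate 5 stood at -0.96 and miR-132 replicate 2 at -0.49. The distance between miR-132 replicates 3 and 5 was therefore larger than the median difference between the groups. In bulk skin, fewer cells that express these genes and less RNA per cell cannot be told apart.

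**Figure D2:**
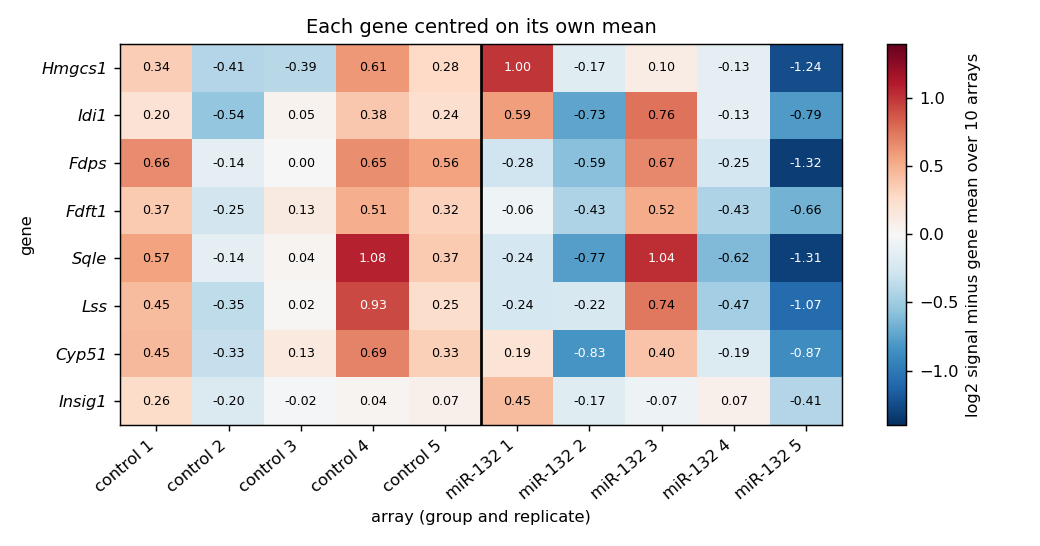
Log2 signal of each gene (rows) on each array (columns, controls left and miR-132 right), minus the gene's mean over the 10 arrays; the number in each cell is that value. The miR-132 replicate 5 column is below 0 for every gene, and the replicate 3 column is above 0 for every gene except Insig1.

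Over the 10 arrays the 28 pairs of these genes had a Pearson's r of 0.40 to 0.97 (median 0.79) and a Spearman's rho of 0.30 to 0.97. In permutation tests of the arrays, 20 pairs passed for r and 18 for rho after Benjamini-Hochberg adjustment over the 28. Fdps, Fdft1, Sqle, Lss and Cyp51, set apart here after the values were seen, were closely related (r of 0.86 to 0.97 and rho of 0.85 to 0.97 over 10 pairs, adjusted permutation p of 0.0002 to 0.0028 for r and 0.0011 to 0.0077 for rho). Without the 2 arrays farthest from the median of the first gene, r for these pairs was 0.71 to 0.96. Idi1 had an r of 0.74 to 0.90 and a rho of 0.70 to 0.85 with the same 5 genes (adjusted permutation p of 0.0015 to 0.0235 for r and 0.0077 to 0.049 for rho), the highest r with Cyp51, and an r of 0.48 to 0.76 without the 2 farthest arrays. Hmgcs1 had an r of 0.62 to 0.74 and a rho of 0.45 to 0.81 with them (adjusted permutation p of 0.0209 to 0.0651 for r and 0.0142 to 0.226 for rho). Without the 2 farthest arrays its r was 0.71 to 0.81. Insig1 had lower values with the same 5 genes (r of 0.40 to 0.66, rho of 0.30 to 0.62, adjusted permutation p of 0.0484 to 0.251 for r and 0.0884 to 0.392 for rho), and without the 2 farthest arrays its r was 0.06 to 0.35. Insig1 was closest to Hmgcs1 (r of 0.88 and rho of 0.85, adjusted permutation p of 0.0028 and 0.0077, and r of 0.62 without the 2 farthest arrays). The arrays share any difference in signal range, so part of each relation can be common to many genes. Of the 17651 other genes tested, 3.52% reached an r of 0.8 with the mean of the 8, and their median r was 0.11.

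**Figure D3:**
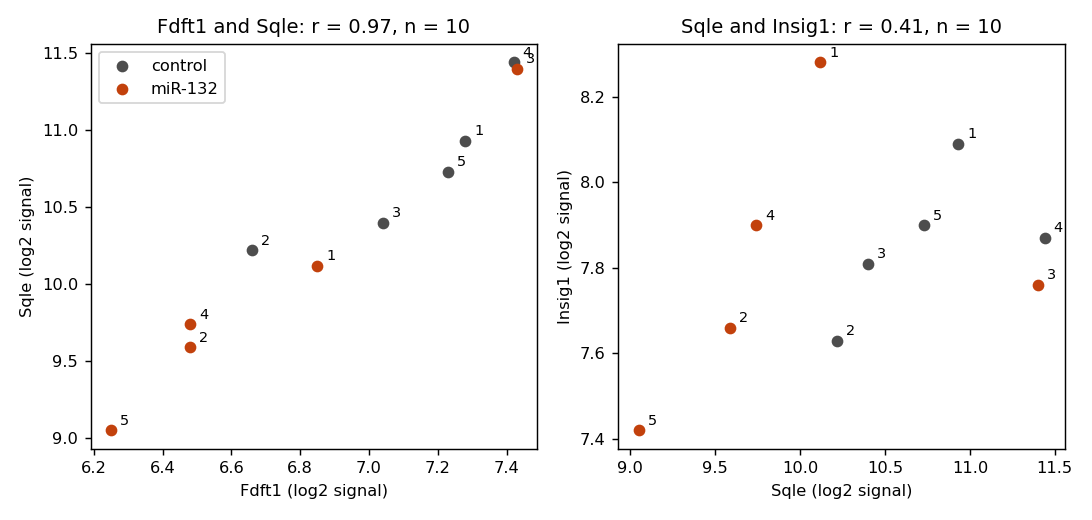
Log2 signal of Sqle against Fdft1 (left) and of Insig1 against Sqle (right) on the 10 arrays, coloured by group and numbered by replicate. The left pair lies near a line (r = 0.97), while in the right pair (r = 0.41) miR-132 replicate 1 has the highest Insig1 at a middle level of Sqle.

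Whether the genes differed from each other in their response was examined within each array, against Hmgcs1 at the entry step, a comparison added after the data were seen. The difference between Sqle and Hmgcs1 was lower with miR-132 by -0.59 and that between Fdps and Hmgcs1 by -0.53, each on 4 of 5 miR-132 arrays against the control mean. Neither passed the test (exact permutation p of 0.143 and 0.111, both 0.500 after adjustment over 7 comparisons). The SD of the within-array difference for Sqle was 0.15 in controls and 0.81 with miR-132. For Fdps it was 0.13 in controls and 0.67 with miR-132. The other 5 genes differed from Hmgcs1 by -0.34 to 0.12 (adjusted exact permutation p of 0.648 to 0.873). A response unequal to that of Hmgcs1 was thus not detected with 5 mice a group, and other contrasts along the chain were not tested.

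The other enzymes of the pathway also averaged lower. Of 16 listed, 12 were measured on a feature of their own, and 11 of these averaged lower (median of -0.28), with 1 lower and 0 higher at an unadjusted p under 0.05, against 5.62% and 2.47% of all genes. The median was -0.16 after quantile normalization, -0.16 without miR-132 replicate 5, -0.19 without control replicate 4 and -0.10 without miR-132 replicates 2 and 5. The count of 1 ran from 0 to 3 when 1 array was left out. The 1 lower gene was Hsd17b7, a late sterol reductase, at -0.50 ± 0.22 (SE, n = 5 per group, limma's unadjusted p of 0.0465 and adjusted p of 0.617), and it was at -0.37 with a p of 0.0980 after quantile normalization. The next smallest p belonged to Mvk, mevalonate kinase (-0.41), Lbr, which carries a sterol reductase domain (-0.44), and Dhcr7, which makes the last bond change in one branch to cholesterol (-0.20), none past the test. The 1 that averaged higher was Ggps1, at 0.06, named after its value was seen. It makes geranylgeranyl diphosphate, on the branch away from sterols. Together with the 7 member enzymes, 18 of 19 enzymes averaged lower, with a median of -0.31 (Erg28, a scaffold of the late enzymes, is counted with them). Over the 10 arrays 6 of these 12 enzymes had an r of at least 0.8 with the mean of the 8 genes, up to 0.98 for Pmvk and 0.97 for Sc5d, both named after their values were seen.

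**Figure D4:**
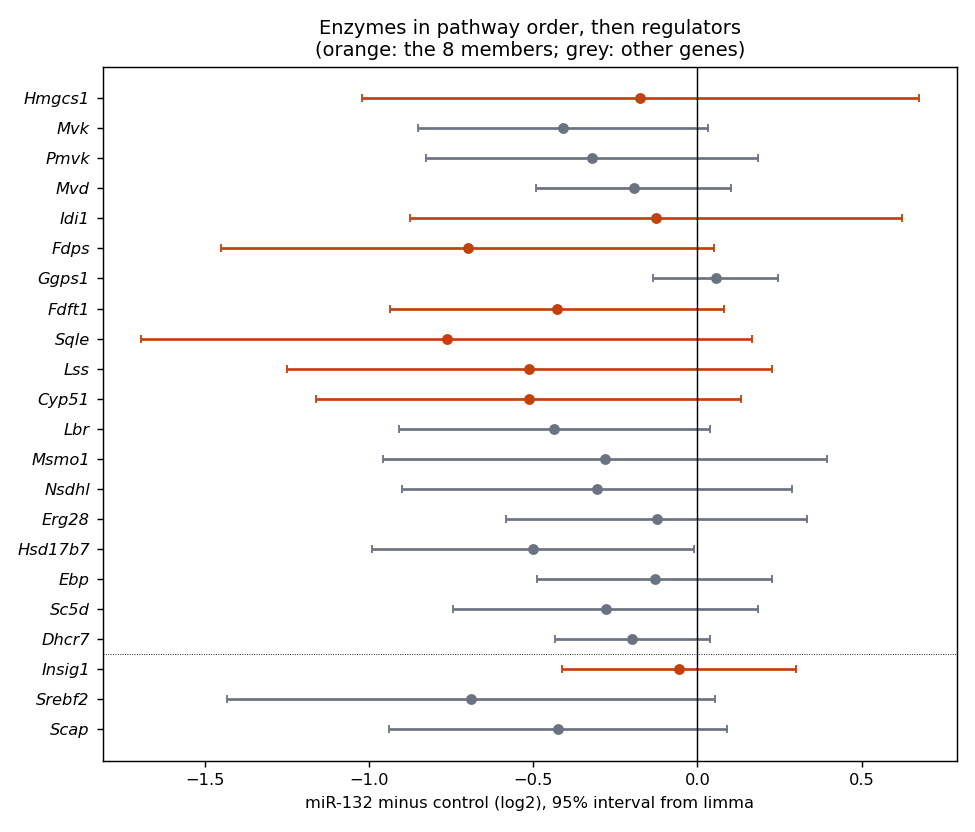
Difference of miR-132 minus control (log2, horizontal axis) with its 95% interval from limma for 19 enzymes in pathway order and 3 regulators below the dotted line; orange marks the 8 genes described here. Points lie below 0 except for Ggps1 (0.06), and every interval except that of Hsd17b7 includes 0.

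Among regulators, Srebf2, which encodes SREBP-2, and Scap, its escort, averaged lower beside the enzymes. Srebf2 measured 8.50, 7.97, 7.90, 8.87 and 8.28 in controls and 7.47, 7.52, 8.80, 7.33 and 6.95 with miR-132, so 4 of 5 miR-132 arrays lay below every control and replicate 3 within their range. Its difference was -0.69 ± 0.33 (SE, n = 5 per group, limma's adjusted p of 0.635), and its r with the mean of the 8 genes was 0.88 (rho of 0.84, n = 10 arrays). Scap differed by -0.42 ± 0.23 (limma's adjusted p of 0.656), again with 4 of 5 below every control and replicate 3 above every control. The ubiquitin ligase genes Syvn1 and Rnf139 differed by -0.12 and -0.14. Of 8 measured regulators 6 averaged lower (median of -0.13) and 0 had an unadjusted p under 0.05. The median was -0.05 after quantile normalization, where 5 averaged lower and Insig2 was higher at an unadjusted p under 0.05, and -0.07 without control replicate 4. Srebf2 and Scap were lower at an unadjusted p under 0.05 in limma without miR-132 replicate 3, the highest miR-132 array for both (10.4% of all genes called lower). They were so too with arrays weighted by their spread about the group means (6.77% of all genes called lower). Srebf1 and Mbtps2 shared their features with another gene and were not tested.

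Of 10 measured uptake and transport genes, 9 averaged lower (median of -0.13). An unadjusted p under 0.05 was reached by 4 of them, against 5.62% of all genes in that direction, and none passed adjustment. The median was -0.0725 without miR-132 replicate 2, -0.0868 without control replicate 1, -0.23 without control replicate 2, and -0.0576 after quantile normalization, where 6 averaged lower. When 1 array was left out, 2 or 3 genes had such a p. Lrp1, an endocytic receptor of lipoprotein remnants, differed by -0.47 ± 0.16 (SE, n = 5 per group, limma's unadjusted p of 0.0163). Npc1, which exports cholesterol from lysosomes, differed by -0.44 ± 0.16 (unadjusted p of 0.0192 from limma). Mylip, a ligase that marks lipoprotein receptors for breakdown, stood at -0.40 and Stard3, a sterol carrier of late endosomes, at -0.18. After quantile normalization 0 of the 10 did so in limma (Lrp1 and Npc1 both at -0.31), where 3.27% of all genes were called lower. With miR-132 replicates 2 and 5 dropped, Lrp1 (-0.44) and Npc1 (-0.47) did so, where 2.27% of all genes were called lower. With the mean of the 8 genes over the 10 arrays, the r was 0.34 for Lrp1, 0.35 for Npc1, 0.20 for Mylip and 0.48 for Stard3. The highest of the list was Stard4, a sterol carrier gene named after its value was seen, with an r of 0.80 and a rho of 0.90.

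Efflux and fatty acid genes showed no common direction. Of 7 measured efflux and liver X receptor genes, 6 were bright enough to test, and 4 averaged lower (median of -0.07, and 0.0065 without miR-132 replicate 3). Plin2, a lipid droplet coat protein, differed by -0.57 ± 0.21 (SE, n = 5 per group, limma's unadjusted p of 0.0231 and adjusted p of 0.596, and an unadjusted p of 0.0851 after quantile normalization). The efflux pump genes Abca1 (-0.21) and Abcg1 (-0.12) and the receptor gene Nr1h3 (0.09) had no unadjusted p under 0.05. Of 10 fatty acid synthesis genes that SREBP also drives, 7 averaged lower, with a median of -0.07 that turned to 0.0301 after quantile normalization and to 0.0457 without miR-132 replicate 5 or without control replicate 5. It was -0.28 without miR-132 replicate 1 and 0.0967 without miR-132 replicates 2 and 5, where 3 averaged lower. In the fit that adjusted for the hybridisation controls it was 0.33, where 2 averaged lower. The smallest p values were those of Acly, which makes cytosolic acetyl-CoA (-0.35), the desaturase genes Fads2 (0.19) and Fads1 (0.07), and the elongase gene Elovl6 (-0.83 ± 0.82, SE), whose signal ranged from 8.15 to 12.81 with miR-132. Acly had an r of 0.87 with the mean of the 8 genes, Elovl6 one of 0.05.

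Genes outside the lists that ran most like the mean of the 8 over the 10 arrays were Plxdc2 (r of 0.97), Atp13a4 (0.97), Dennd2d (0.97), Slc15a1 (0.97), Ube4a (0.97), Them5 (0.97), Sptlc3 (0.96) and Rel (0.96). Their rho was 0.93 to 0.99. Slc15a1 encodes a peptide transporter, Them5 an acyl-CoA thioesterase, Sptlc3 a subunit of the enzyme that starts ceramide synthesis, and Rel an NF-kB subunit. All 8 averaged lower with miR-132, with differences from -0.25 for Ube4a to -1.46 for Them5 on the log2 scale, and none passed the test. Such an order among 17651 genes picks the highest values by design and is a description.

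MiR-132 replicate 3 was the highest miR-132 array for 6 of the 8 genes, so leaving it out must lower the miR-132 mean of those 6. The differences without it, and their p values, are therefore a description. Without it, Sqle was at -1.12, Fdps at -0.96, Lss at -0.76, Cyp51 at -0.68 and Fdft1 at -0.61. All 5 had an unadjusted p under 0.05 in limma (0.0044 for Sqle to 0.0369 for Cyp51), where 10.4% of all genes were called lower in the same way. None passed adjustment (adjusted p of 0.144 to 0.315). Srebf2 was at -0.99 (limma's adjusted p of 0.101). An unadjusted p under 0.05 in limma was also reached by Fdps after centring arrays on their medians (1585 of 17659 genes called lower). With arrays weighted by their spread about the group means, Fdps and Fdft1 did so (1195 of 17659 called lower). Without control replicate 2, the lowest control for all 8 genes, Fdps, Fdft1 and Cyp51 did so (933 of 17659 called lower). None of these passed adjustment, and none of the 8 did so in the other alternatives. Without miR-132 replicate 5 alone, the median of the 8 was -0.31, with Fdps at -0.46 and Lss at -0.31. Quantile normalization, which gives all arrays the same span, left Sqle at -0.62, Fdps at -0.60 and the median at -0.38. Replicates 2 and 5 had a narrow span and were also the 2 arrays with the lowest mean of these genes. Without both, the differences were smaller, at -0.32 for Sqle, -0.30 for Fdps, -0.25 for Lss, -0.21 for Fdft1 and -0.12 for Cyp51. Hmgcs1 (0.24), Idi1 (0.34) and Insig1 (0.12) then averaged higher, and the median of the 8 was -0.16.

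**Figure D5:**
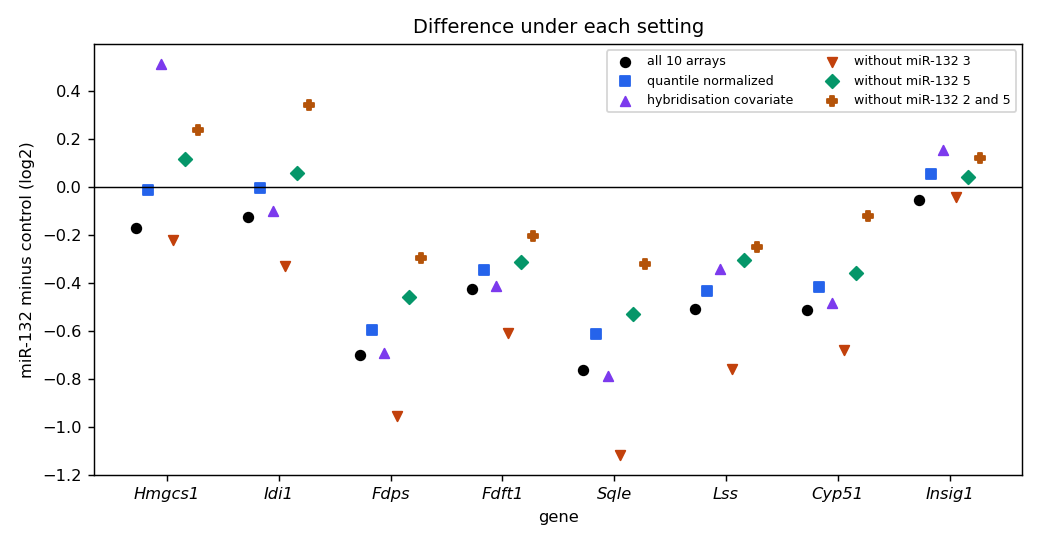
Difference of miR-132 minus control (log2) for each of the 8 genes under 6 settings, shown by symbol. Fdps, Fdft1, Sqle, Lss and Cyp51 lie below 0 under all 6, and Hmgcs1, Idi1 and Insig1 lie on both sides of it.

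Markers of the cell types in the samples were examined beside these values. Keratinocyte genes that define epidermis were bright. Krt1 was at the signal limit on every array, and Krt10, Krt5 and Krt14 and the neutrophil genes S100a8 and S100a9 were at it on at least 1 array, so their differences cannot be read. Basal keratinocyte markers averaged lower for 8 of 8 (median of -0.27, and -0.375 over the 6 below the limit), with a list mean of 11.28 to 11.75 in controls and 10.91 to 11.43 with miR-132. Suprabasal markers averaged lower for 6 of 10 (median of -0.29, and -0.53 over the 8 below the limit, list means of 14.13 to 15.44 and 13.80 to 15.24). Sebaceous markers averaged lower for 5 of 7 tested (median of -0.17, list means over 9 genes of 5.58 to 6.57 and 5.39 to 6.82), and Awat2 and Mc5r were below the level filter. Adipocyte markers averaged higher for 9 of 9 (median of 0.39, list means of 7.77 to 10.24 and 7.78 to 11.26), and the highest array was miR-132 replicate 1, which was also the highest for Hmgcs1 and Insig1. Neutrophil markers averaged lower for 8 of 8 (median of -0.55, and -0.72 over the 6 below the limit, list means of 9.84 to 11.82 and 9.99 to 10.57), with the highest array in control replicate 4. Muscle markers averaged lower for 8 of 8 (-0.27, list means of 9.996 to 13.05 and 9.88 to 13.47), macrophage markers for 4 of 9 (0.02, 11.84 to 12.94 and 11.96 to 13.32), fibroblast markers for 4 of 6 (-0.23, 15.37 to 15.54 and 14.75 to 15.82) and endothelial markers for 4 of 6 (-0.10, 6.96 to 7.62 and 6.52 to 7.66). These medians depended on single arrays. The adipocyte median was -0.022 without miR-132 replicate 1 and 0.84 without miR-132 replicate 3. When 1 array was left out, the medians ran from -0.40 to -0.17 for basal, -0.62 to -0.13 for suprabasal, -0.28 to -0.05 for sebaceous, -0.82 to -0.21 for neutrophil and -0.90 to -0.0665 for muscle markers. They ran from -0.17 to 0.23 for macrophage, -0.34 to -0.0478 for fibroblast and -0.21 to 0.0065 for endothelial markers. In the fit that adjusted for the hybridisation controls the adipocyte median was 1.67, the sebaceous 0.40 and the muscle 0.21. With all 10 arrays, 2 of 8 basal and 1 of 10 suprabasal markers were lower at an unadjusted p under 0.05 in limma. The other marker lists had 0 at such a p, and 0 markers were higher. Of all genes, 5.62% were lower and 2.47% higher in the same way. None of the markers passed adjustment. Suprabasal differences ran from -1.87 to 0.37. The part of these cell types in the differences of the cholesterol genes was not tested.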

How the data were processed

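Wound-edge RNA (150 ng per sample) was hybridised to Affymetrix mouse Clariom D arrays, 1 per mouse. The deposited values were made by the authors with Affymetrix Expression Console 1.4 and RMA, per the submitters' processing notes, and their log2 scale is inferred from their range and shared limit of 19.93. No genome build of the features is given in the sources used here. Of 72688 features, 31266 named 1 gene through the platform annotation and 1484 several; symbols were updated with a GRCm38.p6 gene table. Features naming several genes were not used, and 366 genes with more than 1 feature kept the brightest. Genes with a mean above 4.17, the median over all features, were tested with limma 3.58.1 in R 4.3.3 (intensity trend, no covariates, Benjamini-Hochberg over all genes), two-sided. Differences are miR-132 minus control. Symbols of the 8 genes and all lists were chosen with earlier results of these data known. From each pathway list the 4 genes with the smallest p are named, plus the 8 unlisted genes most like the mean of the members (predicted genes and small RNAs left out). Correlations used 100000 permutations. Alternatives were tried one at a time, and the results above and the closing section give their effects. On simulated arrays of this comparison (17659 genes) the procedure recovered 71% of 2-fold and 93% of 4-fold changes with 13 false calls. There, genes varied independently and with the same spread in both groups. The 8 genes moved together and spread more widely with miR-132, so these shares cannot be read as the chance of finding a change in them. The number of arrays limits the precision. All 10 columns matched a sample, 0 were left over and 0 pairs of arrays were identical.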

Additional observations from a re-analysis of the deposited data

Results flagged for a closer look

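Among 46 genes of the pathway or most like it that are described or drawn by name (92 groups of 5 arrays), 3 had 1 array far from the other 4 of its group, by Dixon's criterion, which chance alone meets in about 1 in 20 groups. Scap stood at 7.85 on miR-132 replicate 3, against 6.69 to 6.98 on the other miR-132 arrays. Rnf139 stood at 6.51 on control replicate 2, against 6.06 to 6.17 on the other controls. Insig2 stood at 7.35 on miR-132 replicate 1, against 6.93 to 7.0 on the other miR-132 arrays. None of the 8 cholesterol genes met the criterion.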

How the results depend on the processing

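Over 19 alternatives for each of the 8 genes, 152 values in all, 141 kept their direction, 11 changed sign and 0 passed the adjusted threshold. The values that changed sign were Insig1 after quantile normalization (0.0502), Hmgcs1 (0.51) and Insig1 (0.15) in a fit that adjusted for the hybridisation controls, and, without miR-132 replicates 2 and 5, Hmgcs1 (0.24), Idi1 (0.34) and Insig1 (0.12). The others came from leaving out 1 array, with ranges of -0.45 to 0.11 for Hmgcs1, -0.33 to 0.0565 for Idi1 and -0.18 to 0.04 for Insig1. The same ranges were -0.96 to -0.46 for Fdps, -0.61 to -0.32 for Fdft1, -1.12 to -0.53 for Sqle, -0.76 to -0.31 for Lss and -0.68 to -0.36 for Cyp51. The median of the 8 was -0.65 with miR-132 replicate 3 left out and -0.31 with replicate 5 left out, the ends of its range. The count of all genes past limma's adjusted threshold was 0, and 0 to 52 when 1 array was left out, 52 without miR-132 replicate 3. The count at an unadjusted p under 0.05 was 1428, and 2639 without the level filter, which tests more genes. It was 951 (without control replicate 5) to 2485 (without miR-132 replicate 3) when 1 array was left out. The cause was not tested.

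Replicate numbers are shared by the groups but were not taken to pair the mice, as same-numbered arrays correlated by -0.03 to 0.16 in their deviations and 2 of 5 correlated best with their own number. With the replicate number as a block, 0 genes passed, 1274 had an unadjusted p under 0.05 and the median of the 8 was -0.47. Using the mean of all features changed none of the 8, since each had 1. The hybridisation controls were mostly brighter with miR-132 (10.57 to 10.98) than in controls (10.43 to 10.61), so in the fit that adjusts for them the controls and the treatment cannot be fully told apart.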
